A study of Danio rerio with 15 samples.

Results

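The signal of 9 abundant maternal transcripts of the zebrafish embryo was followed from the 16-cell stage to gastrulation: h1m, cldnd, birc5b, uchl1, org, thy1, lsm14b, map1lc3c and pkma. A probe set was taken when its single gene symbol in the platform annotation was one of these 9 names. All 9 names matched, with 1 probe set each, out of 8793 genes that the annotation names alone on a probe set and 15502 probe sets without controls. The transcripts had been chosen by their measured intensities, for a high signal at 16 cells and a low one in wild type at 9 hours, so their fall between those groups is described here without a test.

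In all, 15 Affymetrix Zebrafish arrays were hybridised, each with RNA of 20 whole embryos. Of these, 2 held wild-type embryos of the TLAB strain at the 16-cell stage, and 1 array held TLAB wild-type embryos at 50% epiboly, when the blastoderm covers the upper part of the yolk. The other 12 arrays held, with 3 arrays each, uninjected wild-type embryos at 9 hours after fertilisation, uninjected MZdicer embryos at 9 hours, wild-type embryos injected with miR-430 and MZdicer embryos injected with miR-430. MZdicer embryos lack the Dicer nuclease both as the mother's contribution and as their own, and so cannot mature microRNAs. The labels give no age for the injected embryos, no strain for these 4 groups and no group injected without miR-430. An effect of the injection itself or of age therefore cannot be told apart from an effect of miR-430. Whole embryos were used, so fewer cells that hold a transcript and less of it per cell cannot be told apart. The labels do not say whether replicates were separate clutches, so a p-value here reflects only how far these samples scatter, which could be technical.

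An egg is loaded with maternal mRNA, on which the early embryo depends until its own genome is switched on. Much of this mRNA is then removed at the maternal-to-zygotic transition, partly by pathways that the egg itself supplies and partly by pathways that need zygotic transcription. In zebrafish, miR-430 is transcribed at genome activation, binds the 3′ UTRs of many maternal mRNAs, and promotes removal of their poly(A) tails and their decay. RNA for these arrays was primed with oligo(dT), per the labels' protocols, so a shortened tail can lower the signal as well as a loss of the transcript.

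The stage markers separated the 16-cell arrays from all later ones. The summed signal of 6 periderm genes was 240 to 271 on the 16-cell arrays and 43754 to 50514 on the others, and that of 6 mesoderm and endoderm genes was 392 to 400 against 10287 to 13174. Among the later arrays the mesoderm and endoderm sum was 11711 to 12338 in wild type, 11677 to 12330 in injected wild type, 10287 to 10449 in MZdicer and 10393 to 11367 in injected MZdicer, with no gene at 0. In MZdicer 4 of these 6 genes were lower than in wild type and none higher by limma, beside 25.2% lower and 22.2% higher over all probe sets. The median log2 change of the 6 was -0.45, against -0.07 over all probe sets. The part of this difference in the comparisons of MZdicer was not tested. The 5 germ plasm genes went the other way, from 20407 to 21051 at 16 cells to between 981 and 2142 later. The 16-cell and 50% epiboly arrays were scanned on 1 day, and none of the other 12 was, so stage and scan day cannot be told apart in any difference between those arrays and the 9-hour groups. The ratio of the middle to the 5′ probe set of the actin control, which can depend on RNA length and labelling, was 4.12 and 4.19 at 16 cells. It was 15.1 at 50% epiboly, 8.70 to 10.9 in wild type and 8.86 to 10.4 in injected wild type. In MZdicer it was 15.4 to 20.4 and in injected MZdicer 12.1 to 12.7, without overlap with each other or with the wild-type groups. The 3′ to 5′ ratio of actin differed less, at 0.721 to 0.961 on the 16-cell and 50% epiboly arrays. It was 0.842 to 1.19 in the wild-type groups, 1.28 to 1.38 in MZdicer and 1.03 to 1.28 in injected MZdicer. For gapdh the middle to 5′ ratio was 0.462 and 0.444 at 16 cells and 0.624 to 1.00 later. The gapdh 3′ to 5′ ratio went the other way, at 0.429 and 0.313 against 0.134 to 0.227. The part of these ratios in the differences between stages, genotypes and injected and uninjected MZdicer was not tested.

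At 16 cells the 9 transcripts were among the bright ones, but not all at the very top. The signal of cldnd ranked 4 and 3 among 15502 probe sets on the 16-cell arrays, and that of h1m ranked 18 and 21. The dimmest, pkma, ranked 259 and 244. When the largest falls to wild type at 9 hours were listed again among named probe sets, cldnd came first. Its wild-type mean was 0, so the size of its difference is set by the pseudocount of 16. Next among the 9 was h1m at rank 14, with a difference of 6.56 on the log2 scale. The lowest of the 9 was thy1 at rank 46, with 5.25, and 37 probe sets of other genes ranked above it. The nearest below thy1 were asz1 with 5.22 and fmn2b with 5.21. The 9 are thus examples of abundant maternal transcripts that were lost by 9 hours, and not the complete set of the most abundant.

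By 50% epiboly most of the signal of all 9 transcripts had gone. Levels at that stage were 0.507% to 5.65% of the 16-cell mean, and each transcript was at least 2-fold higher at 16 cells on the log2 scale, as were 19.5% of all probe sets tested. The median of the 9 differences was 4.80 on the log2 scale, against 0.11 over all probe sets. The 16-cell arrays had served to choose the transcripts, so a larger fall than that of all probe sets was built in. Of other probe sets as bright at 16 cells as the dimmest of the 9, 38 were at least 16-fold lower in wild type at 9 hours. Their median fall to 50% epiboly was 4.83, near that of the 9. Only 1 array stands for 50% epiboly, so these differences have no replicate check, but they lie within 1 scan day. Of the linear signal lost between 16 cells and 9 hours in wild type, 95.6% to 99.5% was already lost at 50% epiboly. Of the fall on the log2 scale, the share was 66.2% for h1m to 93.3% for thy1. Both shares also use the wild-type arrays at 9 hours, which were scanned on other days.

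**Figure D1:**
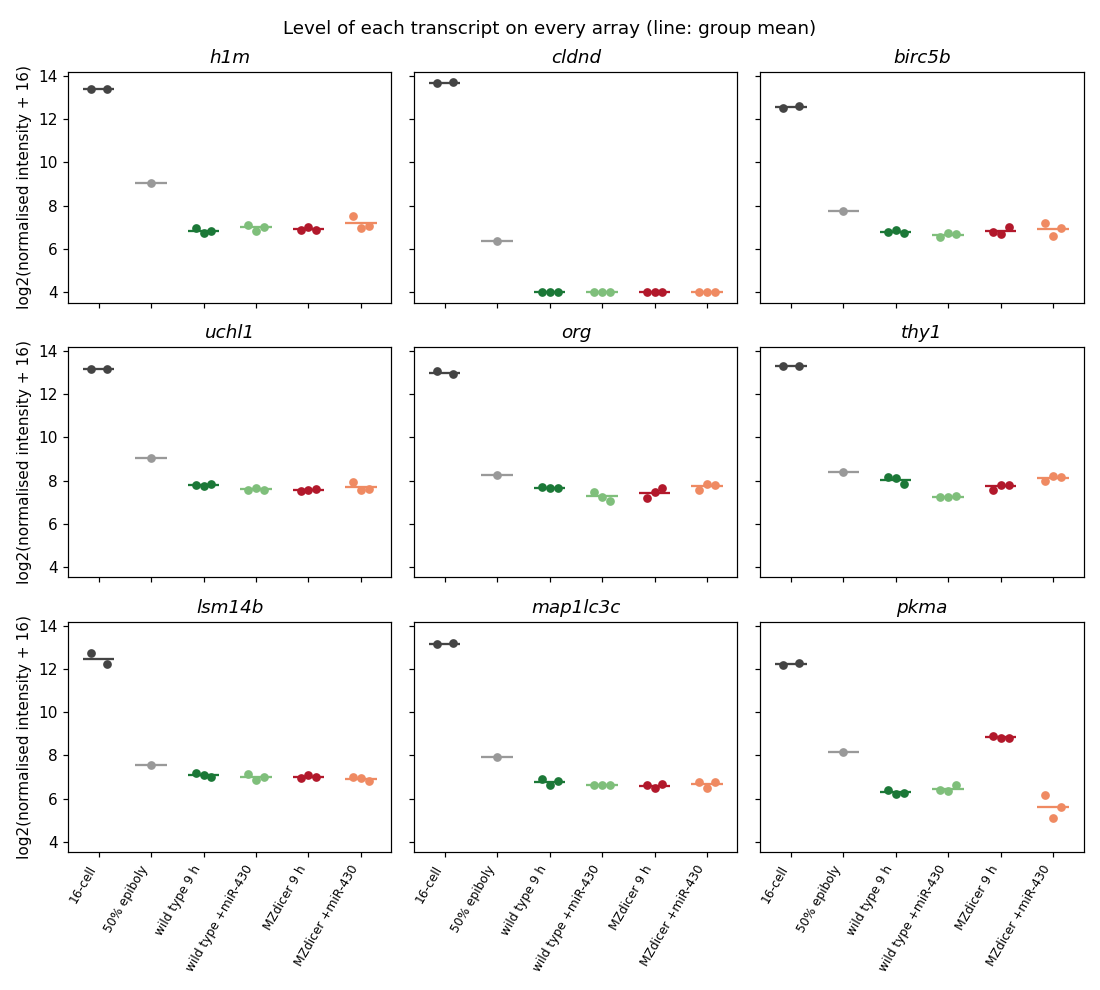
Level of each of the 9 transcripts on every array, as log2 of the normalised intensity plus 16, by group, with a line at the group mean. All 9 are high on both 16-cell arrays and low afterwards, cldnd lies at the lower end of the scale on the last 12 arrays, and pkma alone stands clearly higher in MZdicer than in the other late groups.

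The nuclear proteins come first. h1m encodes the maternal linker histone, which takes the place of somatic H1 in the chromatin of eggs and early embryos. Its normalised intensity was 10834 and 10666 at 16 cells and 516 at 50% epiboly. At 9 hours it was 107, 91.4 and 97.0 in wild type and 99.5, 114 and 103 in MZdicer. After injection it was 122, 98.9 and 115 in wild type and 165, 110 and 116 in MZdicer. The values of injected MZdicer lay above those of wild type without overlap, the other pairs of late groups overlapped, and the 50% epiboly array stood 5.23-fold above the wild-type mean at 9 hours on the linear scale.

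birc5b encodes one of the zebrafish survivins, subunits of the chromosomal passenger complex that acts at centromeres and in cytokinesis. Its intensity was 5807 and 6261 at 16 cells and 201 at 50% epiboly, and 76.6 to 129 on the 12 later arrays, on which the groups overlapped. Its paralog birc5a did not follow it: birc5a measured 1646 ± 163 (SD, n = 2) at 16 cells and 1223 ± 81.0 (SD, n = 3) in wild type at 9 hours.

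Another pair of transcripts encodes proteins of the cell surface. cldnd encodes a claudin, a membrane protein of tight junctions. It gave 13081 and 13299 at 16 cells and 66.8 at 50% epiboly. On all 12 later arrays the deposited values of cldnd were below 0, from -58.4 to -1.32, and were set to 0 here. A difference between the late groups could therefore not be measured for cldnd.

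thy1 encodes a small glycoprotein of the immunoglobulin superfamily that is anchored to the membrane by a lipid. Its intensity was 9995 and 10110 at 16 cells and 321 at 50% epiboly. At 9 hours it was 268, 264 and 216 in wild type and 175, 205 and 209 in MZdicer. After injection it was 135, 133 and 141 in wild type and 232, 280 and 266 in MZdicer. The injected wild-type arrays were lowest, with no overlap with the other 3 late groups.

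org is the oogenesis-related gene, named for its expression in the ovary. It measured 8463 and 7739 at 16 cells and 287 at 50% epiboly. At 9 hours it was 189, 185 and 185 in wild type and 131, 160 and 185 in MZdicer. After injection it was 164, 137 and 118 in wild type and 175, 215 and 203 in MZdicer, and the 2 injected groups did not overlap.

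The remaining 4 encode cytoplasmic proteins. lsm14b encodes an RNA-binding protein of the RAP55 family, found in ribonucleoprotein granules that store translationally silent mRNA. It differed most between the 16-cell arrays, at 6753 and 4742, and fell to 175 at 50% epiboly. map1lc3c encodes a protein of the LC3 family, which is coupled to lipid on autophagosome membranes, and went from 9141 and 9354 to 227. uchl1 encodes a ubiquitin C-terminal hydrolase, and went from 9177 and 9100 to 509. On the 12 later arrays lsm14b lay between 96.7 and 128, map1lc3c between 73.1 and 104, and uchl1 between 167 and 229.

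pkma encodes a pyruvate kinase, the enzyme of the last step of glycolysis. It gave 4679 and 4873 at 16 cells and 270 at 50% epiboly. At 9 hours it was 68.9, 57.6 and 60.2 in wild type but 467, 433 and 431 in MZdicer. After injection it was 68.0, 64.7 and 82.1 in wild type and 56.1, 18.5 and 33.6 in MZdicer. The 3 uninjected MZdicer arrays stood above all other late arrays and also above the 50% epiboly array.

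**Figure D2:**
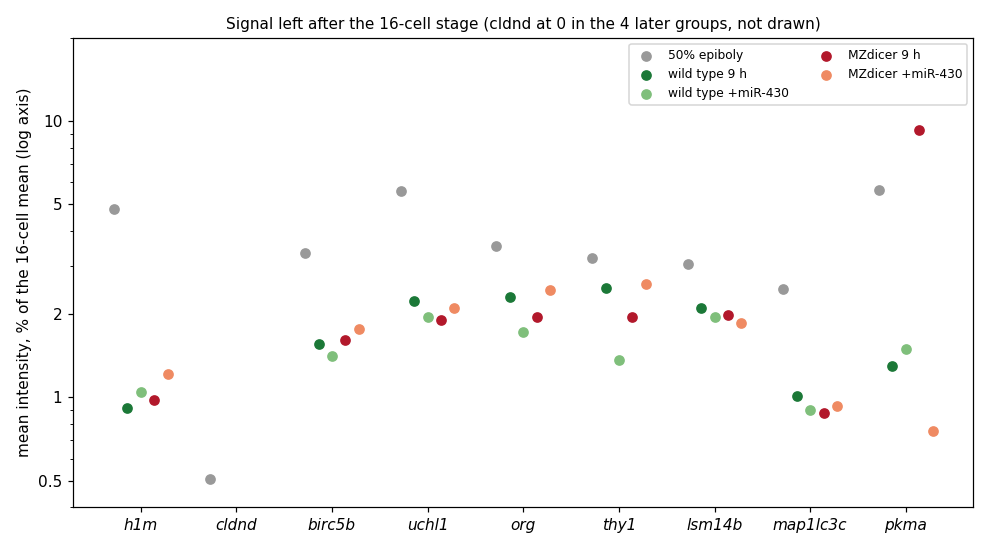
Mean intensity of each transcript in the 5 later groups as a percentage of its 16-cell mean, on a log axis; points are group means and 50% epiboly is 1 array. The 50% epiboly point is the highest of its transcript except for pkma, whose MZdicer mean is 9.30% of the 16-cell mean, and cldnd is at 0 in the last 4 groups.

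The fall went on after 50% epiboly to different extents. Of the 9 transcripts, 5 were at least 2-fold higher on the 50% epiboly array than in wild type at 9 hours on the log2 scale, against 2.90% of all probe sets. They were cldnd, h1m with 2.22, pkma with 1.87, uchl1 with 1.26 and map1lc3c with 1.16. For cldnd, at 0 in wild type at 9 hours, the size of the difference is set by the pseudocount of 16 and is not given. The others were birc5b with 0.98, org with 0.58, lsm14b with 0.49 and thy1 with 0.35. The median of these differences over all 9 was 1.16. For the 38 other bright probe sets that were at least 16-fold lower in wild type at 9 hours, it was 0.78. Since wild type at 9 hours served to choose the transcripts, and 50% epiboly is 1 array scanned on another day, these values carry no test.

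Probe sets differ in sensitivity, so each transcript at 9 hours in wild type was set against its own 16-cell level. thy1 stood at 2.48%, org at 2.3%, uchl1 at 2.23% and lsm14b at 2.1%, and the gap between thy1 and org was smaller than the spread of thy1 between arrays. birc5b stood at 1.57%, pkma at 1.30%, map1lc3c at 1.01% and h1m at 0.917%.

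Whether the loss at 9 hours depended on Dicer was asked by comparing MZdicer with wild type. Only pkma was called higher in MZdicer. Its mean was 444 ± 20.2 in MZdicer and 62.2 ± 5.95 in wild type (SD, n = 3 each), which is 7.13-fold on the linear scale. The arrays do not separate maternal from zygotic transcripts, so maternal pkma that persisted and newly made pkma cannot be told apart. The log2 change of pkma was 2.56 ± 0.20 (SE), with a limma adjusted p of 4.43e-07. thy1 was lower in MZdicer, with a log2 change of -0.32 ± 0.10 and a limma adjusted p of 0.0213. The other 7 transcripts, which include the unmeasurable cldnd, did not pass the threshold, an adjusted p under 0.05. Over all probe sets 47.4% passed it in this comparison, 22.2% as higher and 25.2% as lower in MZdicer. The wild-type arrays at 9 hours had served to choose the 9 transcripts.

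For the transcripts that did not pass, the intervals bound the difference in measured signal between MZdicer and wild type. On these arrays h1m, birc5b, lsm14b and map1lc3c lay above only 26.8% to 41.1% of probe sets. How much of such a dim signal is background is not known. Background would shrink a difference, so the intervals do not bound the difference in transcript level. The 95% interval of the log2 change ran from -0.22 to 0.39 for h1m, from -0.29 to 0.36 for birc5b and from -0.30 to 0.15 for lsm14b. It ran from -0.42 to 0.08 for map1lc3c, from -0.52 to 0.08 for org and from -0.44 to 0.02 for uchl1. uchl1, whose 3 normalised MZdicer values lay below the 3 wild-type ones, passed as lower in 2 alternatives. Its limma adjusted p was 0.0482 in a fit of only the 6 arrays compared and 0.0269 without injected MZdicer replicate 1. Over all alternatives its log2 change ran from -0.24 to -0.04, with limma adjusted p-values up to 0.787. The deposited values of uchl1 overlapped, at 183 to 194 in MZdicer and 185 to 198 in wild type. The fall from 16 cells to MZdicer at 9 hours was 3.38 on the log2 scale for pkma, and lay between 5.45 for lsm14b and 6.57 for map1lc3c among the other 7 with a measured level, without a test.

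The call on thy1 depended on single arrays and on the scaling. Its log2 change was -0.13 with a limma adjusted p of 0.324 on the intensities as deposited. With wild-type replicate 1, the only array of its scan day, left out of that comparison, it was -0.27 with an adjusted p of 0.0705, and it also missed the threshold without MZdicer replicate 1, at 0.0931, or without wild-type replicate 2, at 0.0767. Without the array of the other scan day the log2 change of pkma was 2.62, with a limma adjusted p of 3.28e-06. A fluidics run here means arrays with the same hybridisation date entry in their headers. Arrays with an absent entry would count together as 1 run, whether or not they were run together. No fluidics run held both uninjected genotypes, so run and genotype cannot be told apart in this comparison.

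Injection of miR-430 into MZdicer embryos was compared with uninjected MZdicer. The high and low signals named as grounds for choosing the transcripts were not those of these arrays. The transcripts were chosen with earlier results of these data known, so this comparison is not known to be independent of the choice. pkma fell to 36.1 ± 18.9 (SD, n = 3), 12.3-fold below its uninjected level on the linear scale. Its log2 change was -3.21 ± 0.20 (SE), with a limma adjusted p of 2.11e-07. thy1 rose from 196 ± 18.4 to 259 ± 24.4 (SD, n = 3 each), a log2 change of 0.38 ± 0.10 with a limma adjusted p of 0.0170. The call on thy1 was lost without injected MZdicer replicate 2 or 3 or MZdicer replicate 1, with adjusted p-values of 0.0614, 0.0511 and 0.0802. The other 7, again with the unmeasurable cldnd, did not pass. Over all probe sets 24.6% passed, 12% as higher and 12.6% as lower after injection.

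The 6 arrays of this comparison shared 1 fluidics run and 1 scan day, but uninjected MZdicer was processed on station 2 and injected MZdicer on station 1. Station and injection cannot be told apart. The changes of pkma in the comparison of genotypes and in that of injected with uninjected MZdicer share the uninjected MZdicer arrays.

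In wild type, injection was followed by a lower level of thy1. It went from 249 ± 29.0 to 137 ± 4.13 (SD, n = 3 each), which was 1.82-fold lower on the linear scale. The log2 change of thy1 was -0.79 ± 0.10 (SE), with a limma adjusted p of 3.15e-04. org had a log2 change of -0.39 ± 0.13 and a limma adjusted p of 0.0677, with all 3 injected arrays below all 3 uninjected ones. pkma had a log2 change of 0.16 ± 0.20 and an adjusted p of 0.663. Of the 9 transcripts only thy1 passed, against 14.1% of all probe sets, 7.32% as higher and 6.73% as lower. The uninjected arrays here had served to choose the transcripts, and no fluidics run held both groups, so run and injection cannot be told apart. Injected wild-type replicates 1 and 2 had no station entry in their headers. They count as 1 run by their date entry, which may be absent as well.

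The injected genotypes were compared with each other, on arrays whose signals were not among the stated grounds for choosing the transcripts. Earlier results of these data were known at that choice, so independence from it is not known here either. thy1 was higher in injected MZdicer than in injected wild type by 0.85 ± 0.10 (SE) on the log2 scale, with a limma adjusted p of 1.12e-04. org was higher by 0.46 ± 0.13, with an adjusted p of 0.0238. pkma was lower in injected MZdicer, with a log2 change of -0.81 ± 0.20 and a limma adjusted p of 0.0119. These 3 of 9 passed, against 20.9% of all probe sets, with 11.4% higher and 9.45% lower in injected MZdicer.

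One fluidics run held all 3 injected MZdicer arrays and 1 injected wild-type array, replicate 3. The injected MZdicer arrays were processed on station 1 and this wild-type array on station 2. The other injected wild-type arrays had no station entry. Station and genotype therefore cannot be told apart between the injected groups, also within this run. The fit within this run takes its spread from the 2 MZdicer groups and assumes that the lone wild-type array varies alike. In it the log2 difference of thy1 was 0.80 with a limma adjusted p of 0.0285, that of org 0.67 with an adjusted p of 0.106, and that of pkma -0.98 with an adjusted p of 0.163. A fit of only the 6 injected arrays also left thy1 as the single call, with adjusted p-values of 0.0584 for org and 0.0665 for pkma. The call on org was also lost without injected MZdicer replicate 2 or 3 or injected wild-type replicate 2 or 3, with adjusted p-values from 0.0689 to 0.0967.

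**Figure D3:**
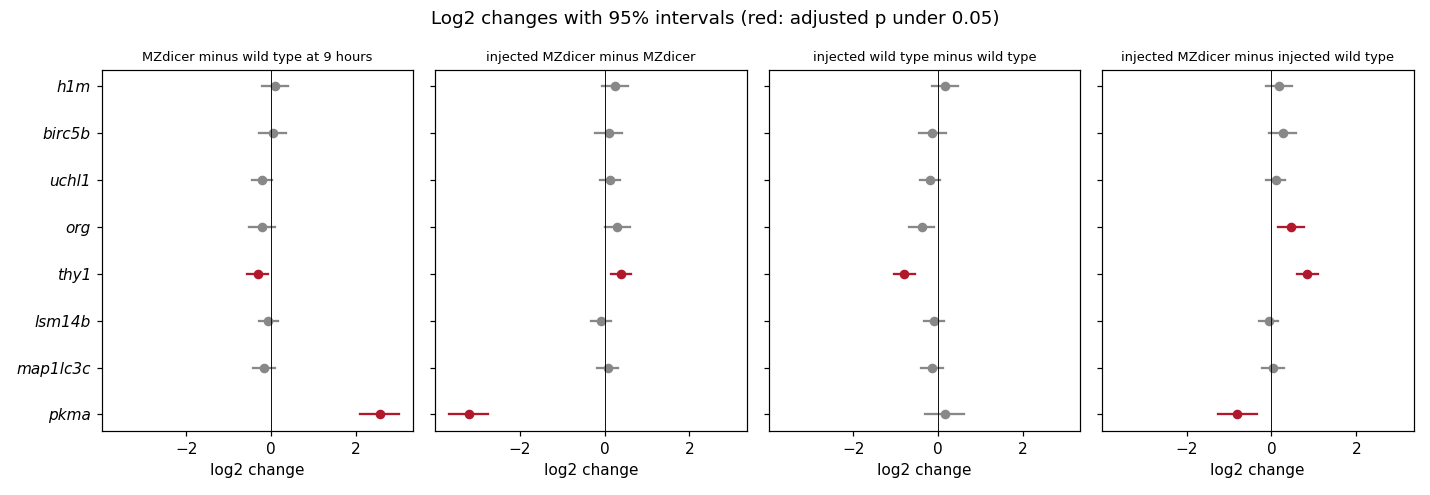
Log2 change of 8 transcripts in 4 comparisons, with 95% intervals from limma standard errors and 8 residual degrees of freedom. Red marks an adjusted p under 0.05, and cldnd, at 0 on all 12 arrays, is left out. pkma stands at 2.56 in MZdicer minus wild type and at -3.21 in injected minus uninjected MZdicer, while thy1 is at -0.79 in injected minus uninjected wild type.

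The change from uninjected to injected embryos differed between the genotypes for 3 transcripts. The difference, injected minus uninjected in MZdicer less the same in wild type, was -3.37 ± 0.28 (SE) on the log2 scale for pkma, with a limma adjusted p of 5.62e-06. It was 1.17 ± 0.15 for thy1, with an adjusted p of 1.09e-04, and 0.69 ± 0.18 for org, with an adjusted p of 0.0170. Of all probe sets, 22.6% passed this test, 10.7% with a positive and 11.9% with a negative difference. This test too includes the uninjected wild-type arrays by which the transcripts were chosen. It also carries the limits of both injection comparisons: fluidics run in wild type and station in MZdicer cannot be told apart from injection.

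The abundance of pkma at 9 hours in MZdicer was also seen in its place within each array. Its signal lay above 71.3% to 73.0% of probe sets on the MZdicer arrays and above 20.6% to 29.0% on the 6 wild-type arrays, injected or not. In injected MZdicer it lay above 5.12% to 20.0%. Both linear folds of pkma and its difference between the injected genotypes rest on these dim signals. How much of them is background is not known. thy1 lay above 55.0% to 60.6% in wild type and above 42.2% to 43.8% in injected wild type.

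Across the 6 group means, pkma was the least like the other 8. Its Pearson correlation with the mean of the others was 0.886, whereas that of each of the other 8 was between 0.985 and 0.998. These are descriptions over 6 groups that share the large fall from the 16-cell stage. Among 479 other bright named probe sets, the 5 with a pattern most like the mean of the 9 were cnot8 with a correlation of 0.999, rtn4a with 0.999, gtf3ab with 0.997, lnpa with 0.996 and ccnp with 0.996. cnot8 encodes a deadenylase of the CCR4-NOT complex, gtf3ab transcription factor IIIA, and rtn4a and lnpa proteins of the endoplasmic reticulum. A correlation does not show how far a level fell: cnot8 went from 8009 at 16 cells to 1140 in wild type at 9 hours, and ccnp from 9190 to 39.4.

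The share of the 9 that was higher in MZdicer was set beside that of other bright probe sets. Of 243 other probe sets that were at least as bright at 16 cells as the dimmest of the 9, 21.4% were called higher in MZdicer and 4.53% were at least 2-fold higher. Of the 38 among them that were at least 16-fold lower in wild type at 9 hours, 34.2% were called higher and 13.2% were at least 2-fold higher. Of the 9, pkma alone, 11.1%, met either measure. The 9 include cldnd, which was at 0 in both genotypes and could not be called.

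Of 26 other measured genes of glycolysis, the pathway of pkma, 8 were higher in MZdicer than in wild type, 4 were lower and 14 did not pass, beside 22.2% higher and 25.2% lower over all probe sets. The median log2 change was -0.06, against -0.07 over all probe sets. tpi1a, which encodes triosephosphate isomerase, was 38.8, 27.7 and 29.1 in wild type and 168, 194 and 208 in MZdicer, a log2 change of 2.11 ± 0.12 with a limma adjusted p of 2.77e-08. pgam1a, a phosphoglycerate mutase, and gpia, a glucose-6-phosphate isomerase, were higher by 1.24 and 1.33, with adjusted p-values of 7.71e-08 and 6.56e-07. hk1, a hexokinase of the first step, was lower, with a log2 change of -1.15 and an adjusted p of 2.51e-07. Another probe set of hk1 gave -1.16, and a dim one, at 39.4 in wild type, gave -0.10 with a limma adjusted p of 0.474.

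After injection into MZdicer, 4 of the 26 glycolytic genes rose, 9 fell and 13 did not pass, beside 12% higher and 12.6% lower over all probe sets. tpi1a fell to 26.5, 24.9 and 27.5, a log2 change of -2.28 with a limma adjusted p of 3.90e-08, and gpia changed by -1.50 with an adjusted p of 6.92e-07. hk1 had a log2 change of 0.05 with an adjusted p of 0.737. On the intensities as deposited, the count of genes that rose was 1 instead of 4. pklr, the other pyruvate kinase measured, had a log2 change of -0.12 in MZdicer with an adjusted p of 0.462.

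**Figure D4:**
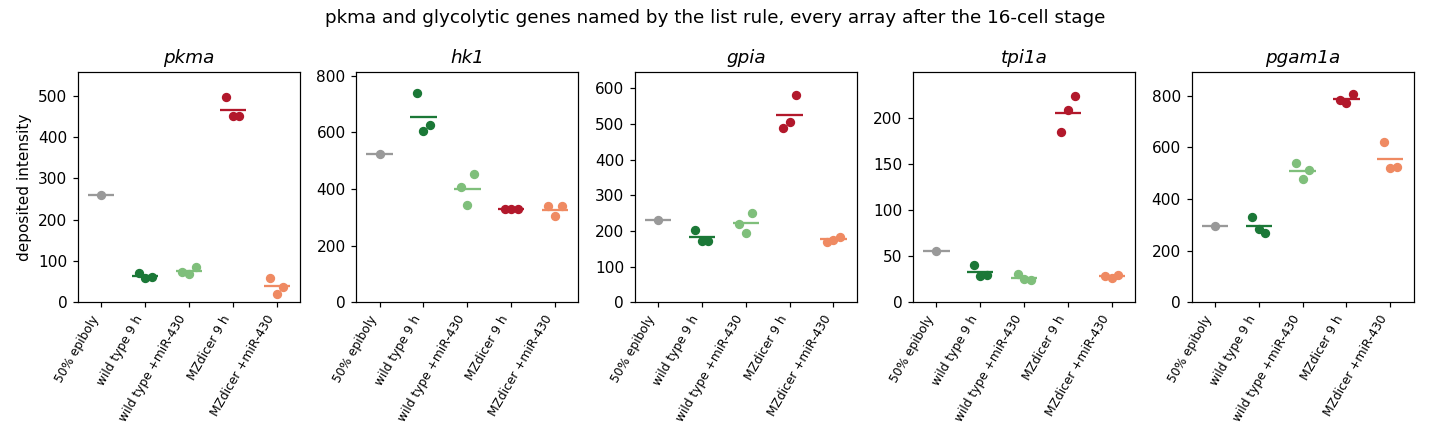
Deposited intensities of pkma and of the 4 other glycolytic genes with the smallest p in MZdicer minus wild type, on every array after the 16-cell stage; lines are group means. pkma, gpia, tpi1a and pgam1a are highest on the 3 MZdicer arrays, and hk1 is highest on the 3 uninjected wild-type arrays.

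The genes related to lsm14b, proteins of RNA granules and translational repression, numbered 23. In MZdicer 10 were higher, 6 were lower and 7 did not pass, beside 22.2% higher and 25.2% lower over all probe sets. The median log2 change was 0.19, against -0.07 over all probe sets. With median centring 9 were higher and 7 lower, and the medians were 0.07 and -0.12. On the intensities as deposited 11 were higher and 4 lower. caprin2, an RNA-binding protein, was higher by 2.63 with a limma adjusted p of 9.81e-10. lsm4 and lsm1, subunits of Lsm rings that bind mRNA or snRNA, were higher by 1.58 and 1.29, with adjusted p-values of 2.31e-08 and 1.76e-07. lsm14ab, a paralog of lsm14b, was higher by 0.61 with an adjusted p of 1.15e-07, and lsm14b itself did not pass. After injection into MZdicer 2 of the 23 rose and 9 fell, beside 12% higher and 12.6% lower over all probe sets. Among those that fell was caprin2, with a log2 change of -2.51 and a limma adjusted p of 3.65e-09.

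Genes of oocytes and eggs, listed for their relation to org, gave 16 measured members without org. From 35313 to 37008 on the 16-cell arrays, their summed signal went to 3656 at 50% epiboly. In the late groups it was 2589 to 2694 in wild type, 2045 to 2109 in injected wild type, 2173 to 2415 in MZdicer and 2302 to 2368 in injected MZdicer, and no gene was at 0. The sum was thus lowest in injected wild type, as the levels of org and thy1 were. Its part in their differences was not tested.

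By gene, 5 of the 16 oocyte genes fell and none rose on injection of wild type, beside 6.73% lower and 7.32% higher over all probe sets. In the test of the difference in injection effect between genotypes, 6 of the 16 were higher and none lower, beside 10.7% and 11.9% over all probe sets, and 3 of 16 were higher with the intensities as deposited. zp3f.1, a zona pellucida protein of the egg coat, had a log2 change of -0.46 on injection of wild type, with a limma adjusted p of 0.00188, and zp3b one of -0.38, with an adjusted p of 0.00827. In MZdicer 5 of the 16 were lower than in wild type and 1 was higher, beside 25.2% lower and 22.2% higher over all probe sets. The higher one was dazl, by 0.57 with a limma adjusted p of 0.00263. With the intensities as deposited 1 was lower and 1 higher.

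**Figure D5:**
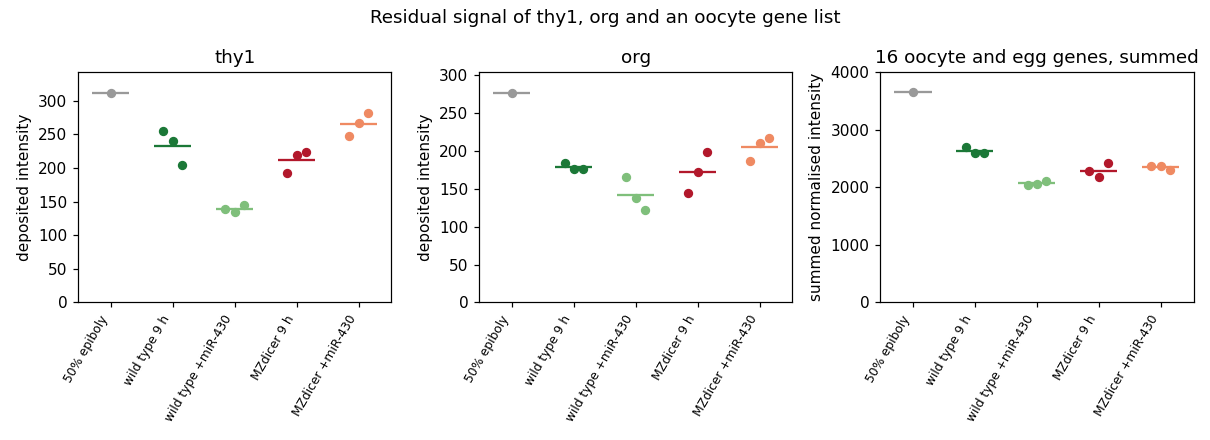
Deposited intensities of thy1 and org and the summed normalised intensity of 16 oocyte and egg genes, on every array after the 16-cell stage, with lines at the group means. In all 3 panels the mean of injected wild type is the lowest; for org single arrays of injected wild type and MZdicer overlap.

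For the families of the other transcripts, the shares of all probe sets called in MZdicer minus wild type, 22.2% higher and 25.2% lower, are the background. Of 19 claudin and tight junction genes, 4 were higher and 8 lower in MZdicer. cldn12 and cldn7b, both claudins, were higher by 1.12 and 0.78, with limma adjusted p-values of 1.53e-07 and 7.71e-08. oclna was lower, with a log2 change of -0.62 and a limma adjusted p of 6.68e-06. cldng, named after its values were seen, has probe sets that disagree: 1 went from 11582 at 16 cells to 76.2 in wild type at 9 hours, and another from 254 to 5796.

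Of 12 linker histone and oocyte chromatin genes, 5 were higher and 3 lower in MZdicer, and with median centring 3 were higher and 4 lower. hmgb1a, a high mobility group protein, was higher by 0.34 with a limma adjusted p of 1.36e-04. It fell on injection of MZdicer, with a log2 change of -0.99 and an adjusted p of 4.66e-08. npm1a was lower in MZdicer than in wild type, with a log2 change of -0.29 and a limma adjusted p of 8.97e-05. Of 7 genes of the chromosomal passenger complex and its partners, 2 were higher and 1 lower in MZdicer, and with median centring 2 were higher and 3 lower. haspin, the histone kinase that recruits the complex to centromeres, was higher by 0.61 with a limma adjusted p of 0.00112. cdca8 was lower, with a log2 change of -0.34 and a limma adjusted p of 5.09e-04.

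Of 11 autophagy genes, 2 were higher and 3 lower in MZdicer, and 2 and 1 with the intensities as deposited. gabarapa, a relative of LC3, was higher by 1.10 with a limma adjusted p of 3.19e-07, and map1lc3b, the nearest relative of map1lc3c in the list by name, was lower, with a log2 change of -0.64 and an adjusted p of 2.18e-06. Unlike map1lc3c, map1lc3b was dimmer at 16 cells, at 706 ± 44.7 (SD, n = 2), than in wild type at 9 hours, at 2114 ± 44.0 (SD, n = 3). Of 4 ubiquitin hydrolase and ubiquitin genes, 1 was higher and 1 lower in MZdicer, against 0 and 1 with the intensities as deposited and 0 and 3 with median centring. The lower one was uchl3, a hydrolase of the family of uchl1, with a log2 change of -0.48 and an adjusted p of 5.36e-04.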

How the data were processed

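RNA of zebrafish embryos was measured on 15 arrays in 6 groups. The authors deposited 1 linear intensity for each probe set and array, per the file headers; the summary of probes, the background correction and the scaling are not stated there or in the labels, and the number of arrays limits the precision. Of 15617 probe sets, 115 controls were left out. The trimmed mean of the arrays differed by up to 1.13-fold, so intensities were quantile normalised over the 15 arrays and analysed as log2(intensity + 16), with negative values first raised to 0. On this scale a log2 change understates that of dim transcripts.

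The 4 groups of genotype and injection (12 arrays, 8 residual degrees of freedom) were fitted together with limma 3.58.1 in R 4.3.3 (moderated by eBayes along the intensity trend). Benjamini-Hochberg adjustment covered 15502 probe sets, and a call needed an adjusted p under 0.05. Every p-value printed is from limma. The fit was checked on simulated data. Alternatives were other scalings, pseudocounts of 1 and 64, a filter on dim probe sets, blocks for replicate number, scan day and fluidics run, fits within a day or run, and leaving out each array; the within-run fits and the within-day fit of injected wild type were added after the data were seen. The deviations of same-numbered arrays of different groups had correlations from -0.229 to 0.258 over 18 pairs. Those of different-numbered arrays ran from -0.397 to 0.379 over 36 pairs. The numbers were therefore not used to pair samples in the main fit, but correlations this low cannot exclude a weak pairing.

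The 9 transcripts and all gene lists were chosen with earlier results of these data known. A listed gene is represented by its brightest probe set, and at most 4 genes of a list are named in the comparison of MZdicer with wild type, those with the smallest p there, besides paralogs of the 9. Genes of like pattern were sought among named probe sets with a group mean of at least 4000. No sequences or coordinates were used.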

Additional observations from a re-analysis of the deposited data

Results flagged for a closer look

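There were 3 results that drew attention because the change from uninjected to injected embryos differed between the genotypes by a limma test of that difference. The test includes the uninjected wild-type arrays whose low values chose the transcripts. Fluidics run in wild type and station in MZdicer cannot be told apart from injection in it. For pkma the change in MZdicer less that in wild type was -3.37 on the log2 scale, with an adjusted p of 5.62e-06: all 3 injected MZdicer arrays were below all 3 uninjected ones, while the wild-type arrays overlapped. For thy1 the difference was 1.17, with an adjusted p of 1.09e-04: injected arrays were lower in 3 of 3 cases in wild type and higher in 3 of 3 in MZdicer. For org it was 0.69, with an adjusted p of 0.0170: injected arrays were lower in 3 of 3 cases in wild type, and the MZdicer arrays overlapped.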

How the results depend on the processing

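The calls on pkma in MZdicer minus wild type (2.01 to 2.82 on the log2 scale), injected minus uninjected MZdicer (-3.72 to -2.36) and the interaction (-3.91 to -2.46) held in every alternative run, as did those on thy1 in injected minus uninjected wild type (-0.89 to -0.64), between the injected genotypes (0.69 to 0.92, with 1 injected wild-type array in the fit within a run) and in the interaction (0.95 to 1.27), and on org in the interaction (0.54 to 0.80). The number of the 9 transcripts called in MZdicer minus wild type was 1 instead of 2 with the intensities as deposited, with scan day as a block and within 1 scan day, 3 with only the arrays compared, with uchl1 added as lower, and 1 to 3 when single arrays were left out, with uchl1 added without injected MZdicer replicate 1. It was 2 instead of 1 for injected minus uninjected wild type after removal of the dimmest 40% of probe sets, with org added, and 1 to 2 with single arrays left out, where org was added without injected wild-type replicate 1 or injected MZdicer replicate 1. For injected minus uninjected MZdicer it was 1 to 2 with single arrays left out. Between the injected genotypes it was 1 instead of 3 with only the arrays compared, and 2 to 3 with single arrays left out. Without injected MZdicer replicate 2 it stayed at 3, but birc5b was called higher in place of org. For the interaction the number was 3 throughout. The replicate block left the counts of the 9 at 2, 2, 1, 3 and 3; over all probe sets it called 7121, 3606, 1930, 2947 and 3250.

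The median fall of the 9 from 16 cells to 50% epiboly was 4.77 without the dimmest probe sets, which drops cldnd, 4.60 as deposited, 4.73 with median centring, 4.90 and 4.54 with pseudocounts of 1 and 64, and 4.70 to 4.83 with 1 array left out. That to wild type at 9 hours, 5.78 in the main analysis, was 5.58, 5.50, 5.63, 5.98 and 5.26 in the same order, and 5.71 to 5.82. That from 50% epiboly to wild type, 1.16, was 1.07, 1.07, 1.06, 1.28 and 0.89, and 1.09 to 1.22. Changes with an adjusted p far from the threshold turned sign near 0: in MZdicer minus wild type birc5b was -0.024 with median centring and lsm14b 0.038 as deposited, and between the injected genotypes map1lc3c was -0.0083 with median centring. With single arrays left out, birc5b ranged from -0.059 to 0.114 in MZdicer minus wild type and from -0.036 to 0.250 in injected minus uninjected MZdicer. Between the injected genotypes, lsm14b ranged from -0.130 to 0.0015, map1lc3c from -0.010 to 0.136 and uchl1 from -0.028 to 0.167. The cause of these shifts was not tested. The share of all calls that were higher was 46.9% in MZdicer minus wild type, 65.0% as deposited; 48.7% and 38.6% in injected minus uninjected MZdicer; 54.7% and 71.0% between the injected genotypes; 47.2% and 35.1% for the interaction; and 52.1% in injected minus uninjected wild type, 40.8% with median centring. The median change of all probe sets in MZdicer minus wild type was -0.07, 0.03 as deposited and -0.12 with median centring.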
